A study of Mus musculus with 9 samples.

Results

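The genes described here encode MHC class I heavy chains of the mouse and their shared light chain. They are the 10 rows with the symbols H2-K1, H2-D1, H2-Q4, H2-Q6, H2-Q7, H2-Q10, H2-T22, H2-T23, H2-T24 and B2m, taken by symbol from a table of 24060 genes. RNA was sequenced from CD8 T cells of 3 lines of transnuclear mice, Rop7-I, Rop7-II and Rop7-III, with 3 biological replicates per line and 9 samples in all. The animals of each line carry the T-cell receptor of 1 donor CD8 T cell, and all 3 receptors recognise a Rop7 peptide of Toxoplasma gondii presented by the class I molecule H-2Ld. The lines were backcrossed to BALB/c. The paper describes the sequenced CD8 T cells as homozygous, a term it uses for the receptor alpha and beta chains. Splenocytes of all 3 lines spent a night in culture with 10 ng/ml IL-2 and no antigen, and CD3+ CD8+ cells positive for H-2Ld-Rop7 were then sorted to a stated purity of 90 to 95%. Each line stands for 1 clone, so that what belongs to a receptor and what belongs to a line cannot be told apart. The labels call the replicates biological but do not say from how many animals each came, and they give no age.

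Class I molecules present peptides from inside the cell to CD8 T cells. A heavy chain pairs with beta-2-microglobulin, the product of B2m, and is loaded with a peptide in the endoplasmic reticulum, where the peptide arrives through the TAP transporter after being cut by proteasomes. H2-K1 and H2-D1 are the classical heavy chains, present on nearly all nucleated cells. The Q and T genes are class Ib, with lower or more restricted expression, and lie on chromosome 17 in the same complex. Class I genes are induced by interferons, and the transactivator NLRC5 drives them in lymphocytes. BALB/c mice have the d haplotype of this complex, which holds the Ld gene, whereas the reference to which the authors aligned the reads, mm10, comes from C57BL/6 mice with the b haplotype. How reads of the d haplotype were divided among the rows of the reference was not tested.

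Levels are given in TPM, a scale of transcripts per gene length on which all samples have the same total. The order of class I rows also depends on how reads of the d haplotype were divided among them, so that it may not be that of the genes. All 10 genes had a TPM over 1 in every sample. In Rop7-I T cells, the order was B2m at 4153.6 ± 46.0 TPM (SD, n = 3), H2-D1 at 3723.2, H2-K1 at 2160.6, H2-Q4 at 1366.4, H2-T23 at 843.4, H2-Q6 at 500.7, H2-T22 at 235.6, H2-Q10 at 163.4, H2-Q7 at 93.2 and H2-T24 at 50.6 TPM. In that clone no neighbours in this order overlapped. In Rop7-II T cells, the samples of H2-Q10 overlapped with those of H2-T22 and of H2-Q7. In Rop7-III T cells, H2-Q10 overlapped with H2-T22, and H2-Q7 with H2-T24. The 10 genes together held between 1.10% and 1.35% of all transcripts of a sample.

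**Figure D1:**
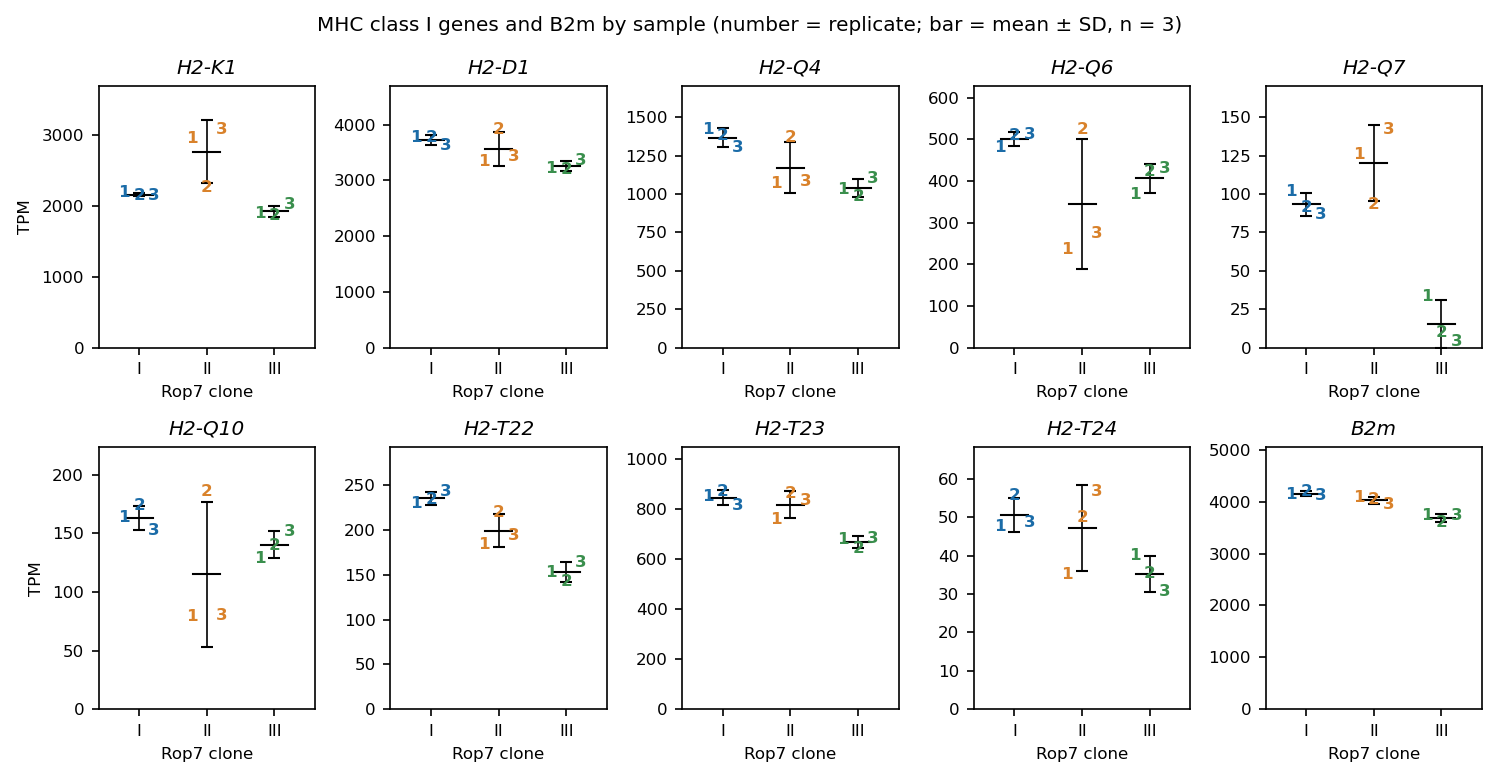
TPM of each of the 10 genes (vertical axis, starting at 0, with its own scale in each panel) in the samples of the 3 clones. Coloured numbers are the replicates and black bars the mean ± SD (n = 3). Rop7-III samples lie below all Rop7-I samples in every panel, and Rop7-II replicate 2 stands apart from Rop7-II replicates 1 and 3 in H2-K1, H2-D1, H2-Q4, H2-Q6, H2-Q7 and H2-Q10.

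The samples of Rop7-II did not resemble each other in class I genes. The median SD of log2(TPM + 1) over the 10 genes was 0.22 in Rop7-II, against 0.05 in Rop7-I and 0.09 in Rop7-III, whereas over all 12115 genes tested it was 0.09, 0.07 and 0.07. Replicate 2 of Rop7-II lay at least 0.5 on the log2 scale from both other replicates, which agreed within 0.25, in 18 of the 139 tested genes within 2 Mb of H2-Q7 on chromosome 17, or 12.9%. Over all genes, the share was 1.16%, and no other sample had more than 3 such genes in that stretch. Among the 18 were H2-Q6 and H2-Q10 and the further class I rows H2-Q1, H2-Q2, H2-Q5, H2-Bl, H2-T10, Gm11127 and Gm8909. Other neighbours were among them too. Myo1f, a myosin of leukocytes, stood at 89.8, 158.6 and 79.4 TPM in Rop7-II replicates 1, 2 and 3 and between 167.1 and 174.1 TPM in Rop7-I. AA388235 stood at 7.10, 1.82 and 7.67 TPM in Rop7-II and between 1.88 and 2.10 TPM in Rop7-I. In both, Rop7-II replicate 2 lay nearer to Rop7-I than to its clone-mates. These genes were named after their values were seen. What sets the Rop7-II samples apart from each other was not tested, nor was whether they carry the same haplotype of this region. A Rop7-II mean over these genes thus joins samples that differed.

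**Figure D2:**
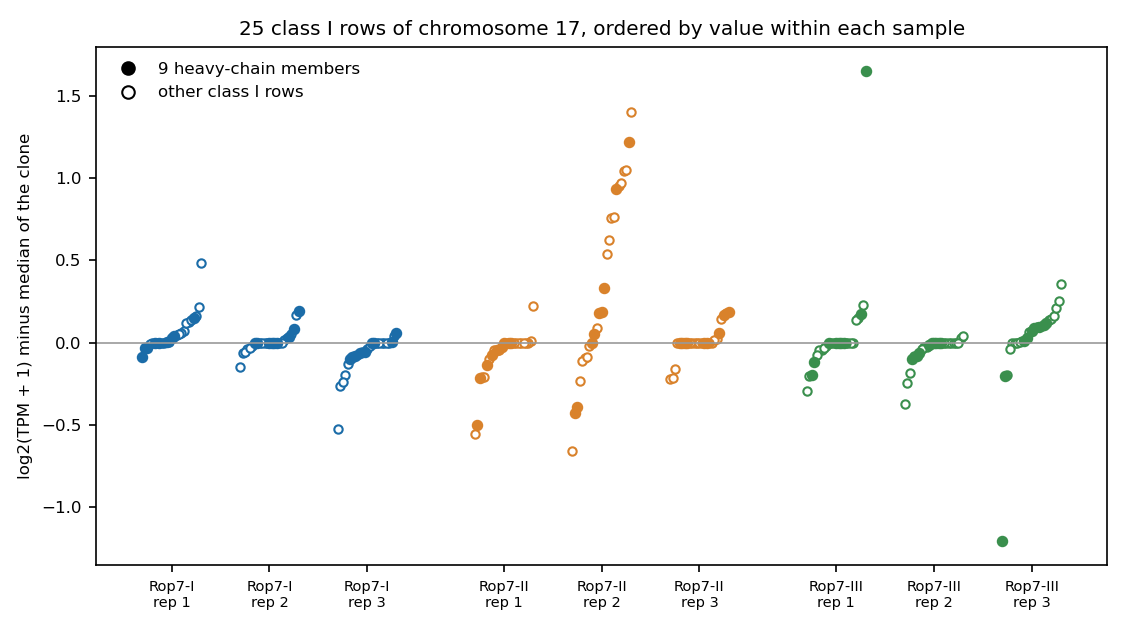
Each point is 1 of 25 tested class I rows of chromosome 17 in 1 sample, plotted as log2(TPM + 1) minus the median of its clone, with the points of a sample ordered by value. Filled points are the 9 heavy-chain genes described here, open points the other class I rows. The median SD of these rows was 0.34 in Rop7-II, 0.08 in Rop7-I and 0.10 in Rop7-III, and the widest spread is in Rop7-II replicate 2.

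The clones were compared with limma on log2(TPM + 1), and a gene passed at a Benjamini-Hochberg adjusted p under 0.01 over all 12115 genes tested. The fit took 1 spread per gene from all 9 samples, so that the clone not compared also entered the error of each comparison. Every adjusted p below comes from this fit unless another setting is named. In Rop7-III T cells, 4 of the 10 genes fell against Rop7-II (H2-K1, H2-Q7, H2-T22 and H2-T23) and 4 against Rop7-I (H2-Q7, H2-T22, H2-T23 and B2m), and none rose. Of all genes, 5.89% fell in Rop7-III against Rop7-II and 2.28% against Rop7-I (12.3% and 4.85% in either direction). At an unadjusted p under 0.05, the counts were 6 and 7 lower and 0 higher, where 19.9% and 13.3% of all genes were lower. Between Rop7-I and Rop7-II, none of the 10 passed, against 7.53% of all genes, and 5 had an unadjusted p under 0.05, against 32.1% of all genes, with 4 of them higher in Rop7-I, against 14.9%. The F test across the 3 clones passed H2-Q7, H2-T22, H2-T23 and B2m, against 14.1% of all genes. These counts were fragile, and those over all genes moved too. Without Rop7-II replicate 3 or Rop7-III replicate 2, 0 of the 10 passed against Rop7-II. Of all genes, 1110 and 855 passed in those fits, against 1488 with all samples. Without Rop7-II replicate 2, the count was 6, and 1262 of all genes passed. Of the 6, H2-Q6 and H2-Q10 rose, by 0.67 and 0.81 on the log2 scale. Without Rop7-III replicates 1 or 3, 1 and 2 of the 10 passed against Rop7-II, and 834 and 895 of all genes. Against Rop7-I, 1 passed without Rop7-I replicates 1 or 2 or Rop7-III replicates 2 or 3, and 2 without Rop7-I replicate 3 or Rop7-III replicate 1. Without Rop7-II replicate 2, 5 passed between Rop7-I and Rop7-II, H2-K1 lower in Rop7-I and H2-Q4, H2-Q6, H2-Q10 and H2-T22 higher. Of all genes, 672 passed in that comparison, against 912 with all samples. With Rop7-II replicates 1 and 3 left out, a setting chosen after seeing the data, replicate 2 is the only sample of its clone. The spread then comes from the other clones alone, so that only sizes are given for that fit. Counts of alternatives below include it. Its log2 fold changes against Rop7-II were -0.52 in H2-T22, -0.37 in H2-T23, -0.26 in H2-D1, -0.40 in H2-Q4 and -2.97 in H2-Q7. The replicates are the only measure of error here, and p-values measure the spread between these samples, which may be technical.

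The direction was more uniform than the calls. Every Rop7-III sample lay below every Rop7-I sample in 10 of the 10 genes, which held for 19.7% of all genes, and below every Rop7-II sample in 5 of the 10 (H2-K1, H2-Q7, H2-T22, H2-T23 and B2m), against 21.2%. The median log2 fold change of the 10 genes was -0.32 against Rop7-I and -0.23 against Rop7-II, where the median of all genes was -0.00 and -0.02. In Rop7-I against Rop7-II the median was 0.10, with 8 of 10 genes above 0. The comparisons of Rop7-III share its samples, and related rows share reads, so that these counts do not add up as independent ones. Changes of at least 2-fold were rare. H2-Q7 alone passed with such a change, in both comparisons of Rop7-III, against 1.70% and 1.06% of all genes, and none did between Rop7-I and Rop7-II, against 0.949%.

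**Figure D3:**
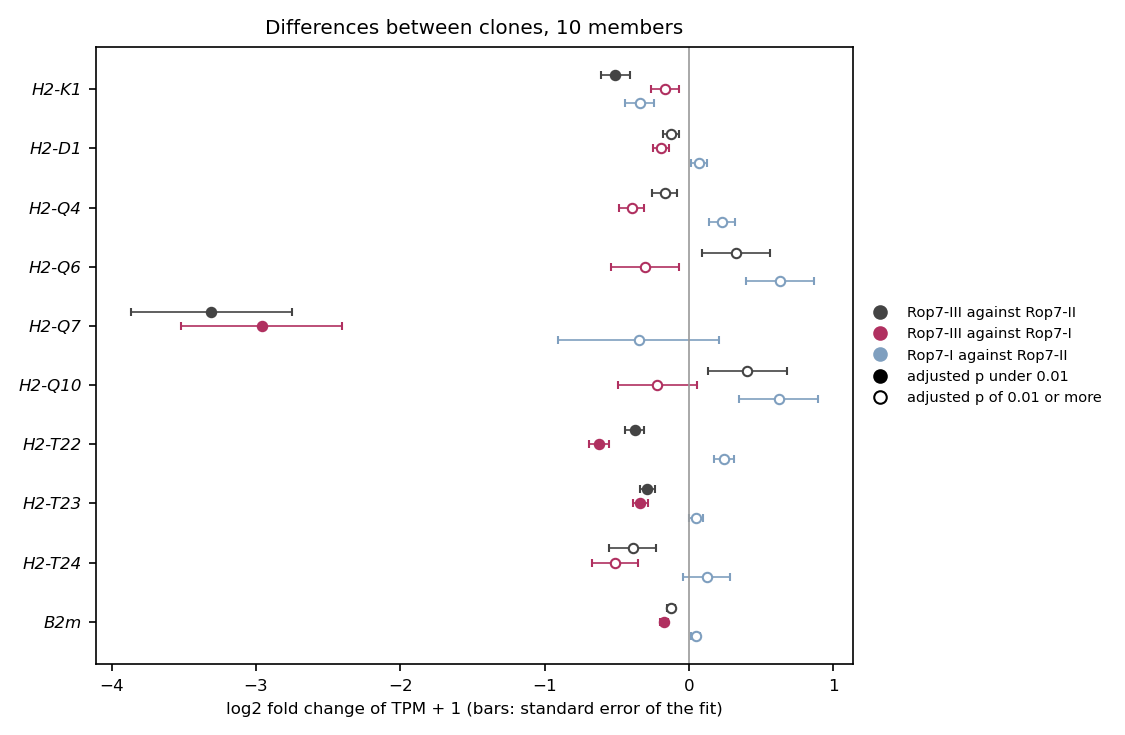
Log2 fold change of TPM + 1 (horizontal axis) of the 10 genes in the 3 comparisons of clones, with the standard error of the fit. Filled points passed an adjusted p under 0.01. All points of Rop7-III against Rop7-I lie below 0, H2-Q7 lies at -3.31 and -2.96 in the comparisons of Rop7-III, and all points of Rop7-I against Rop7-II are open and stay within 0.63 of 0.

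H2-K1 encodes the classical heavy chain K (GRCm38, chromosome 17, 33996012 to 34000619). It stood at 2189.7, 2147.9 and 2144.3 TPM in Rop7-I. The Rop7-II values were 2959.1, 2257.5 and 3078.9 TPM and the Rop7-III values were 1889.7, 1869.0 and 2015.1 TPM, each for replicates 1, 2 and 3. Rop7-III was lowest and Rop7-II highest, with no overlap between any of the clones, and Rop7-II replicate 2 lay close to Rop7-I. H2-K1 fell in Rop7-III against Rop7-II by 0.51 on the log2 scale (standard error 0.10, adjusted p = 0.0054), a fold of 1.42. Against Rop7-I, its log2 fold change was -0.17 (adjusted p = 0.304), and that of Rop7-I against Rop7-II was -0.34 (adjusted p = 0.0403). The call against Rop7-II was lost without any 1 of the 3 Rop7-I samples, the 3 Rop7-III samples or Rop7-II replicates 1 and 3, with adjusted p between 0.0104 and 0.0234. Without Rop7-II replicate 2 it held (adjusted p = 2.5e-05), and H2-K1 then also passed between Rop7-I and Rop7-II, at -0.48 on the log2 scale (adjusted p = 0.000158). With Rop7-II replicate 2 as the only sample of its clone, a setting chosen after seeing the data, the log2 fold change of Rop7-III against Rop7-II was -0.23.

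H2-D1 encodes the classical heavy chain D (chromosome 17, 35263094 to 35267497). Its level was 3774.7, 3768.9 and 3625.9 TPM in Rop7-I. In Rop7-II it was 3332.0, 3908.7 and 3430.3 TPM, and in Rop7-III 3204.3, 3199.8 and 3359.3 TPM. Rop7-III lay below Rop7-I without overlap and overlapped with Rop7-II, whose replicate 2 was the highest of all 9 samples. The log2 fold change was -0.19 against Rop7-I (standard error 0.06, adjusted p = 0.0498) and -0.13 against Rop7-II (adjusted p = 0.133), and neither passed. Without Rop7-II replicate 2, the first passed (adjusted p = 0.00664). The ratio of H2-K1 to H2-D1 was 0.580 ± 0.011 in Rop7-I and 0.591 ± 0.008 in Rop7-III (SD, n = 3). In Rop7-II it was 0.888, 0.578 and 0.898 in replicates 1, 2 and 3, so that replicate 2 was like the other clones and replicates 1 and 3 were not. The summed level of both genes was 5883.8 ± 101.2 TPM in Rop7-I. The Rop7-II value was 6322.1 ± 173.6 TPM and the Rop7-III value was 5179.1 ± 169.7 TPM (SD, n = 3), and the 3 clones did not overlap.

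The promoter of H2-D1 is shown because it holds each element that was searched for in class I promoters save one. The RefSeq promoter table (GRCm38.p6) has windows for 9 of the 10 genes. Both strands of the 250 bases before each start were searched for GGGATTCCC (a kappa B site), TGACG (a site of CREB-type factors), CCAAT (the site of NF-Y), AAANNGAAA (the core of an interferon response element) and, chosen after the sequences were seen, TTTCACTT, which overlaps with AAANNGAAA where a T follows. In H2-D1 (chr17:35262894-35263093, plus strand, 200 bases up to the start) capitals mark, in order, GGGATTCCC, TTTCACTT, TGACG and CCAAT on the minus and on the plus strand.
H2-D1: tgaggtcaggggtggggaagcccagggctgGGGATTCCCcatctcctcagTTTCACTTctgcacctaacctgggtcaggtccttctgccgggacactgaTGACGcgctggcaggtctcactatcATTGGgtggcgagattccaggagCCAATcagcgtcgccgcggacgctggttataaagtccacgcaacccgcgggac

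GGGATTCCC was in 4 of the 9 promoters (H2-K1, H2-D1, H2-Q6 and H2-Q7), against 0.301% of all 32851 windows. TTTCACTT was in 7 of the 9, all but H2-T23 and B2m, against 1.36%, TGACG in 6 against 17.8% and CCAAT in 8 against 33.8%. AAANNGAAA was in H2-T22, H2-T23 and B2m, 3 of the 9, against 9.37%. Related genes share these stretches by descent, so that the promoters are not independent examples. A match shows only that the letters are present in the reference. A promoter without a match may hold another form of the site, and other forms were not searched for.

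The Q genes H2-Q4, H2-Q6, H2-Q7 and H2-Q10 are class Ib genes next to H2-D1. H2-Q10 is known for a soluble class I molecule made mainly in liver, and the products of H2-Q7 and its close relative H2-Q9 are known together as Qa-2, a molecule of lymphocytes held in the membrane by a lipid anchor. H2-Q7 showed the largest change of the 10 genes. Its level (chromosome 17, 35439140 to 35443773) was 101.6, 91.6 and 86.6 TPM in Rop7-I. Rop7-II replicates had 126.0, 93.4 and 142.0 TPM, and those of Rop7-III 33.3, 9.90 and 3.72 TPM, each for replicates 1, 2 and 3. All 3 Rop7-III samples lay far below the other 6, but they also differed among themselves, with an SD of 1.44 on the log2 scale. H2-Q7 fell in Rop7-III against Rop7-II, at -3.31 on the log2 scale (standard error 0.56, adjusted p = 0.00284), and against Rop7-I, with -2.96 (standard error 0.56, adjusted p = 0.00939). Rop7-I and Rop7-II overlapped, at -0.35 on the log2 scale (adjusted p = 0.718).

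These calls rested on the choice of samples and rows. Against Rop7-II, the call was lost without Rop7-II replicate 3 (adjusted p = 0.0113) or Rop7-III replicate 2 (adjusted p = 0.0134). Against Rop7-I, it was lost in 7 of the 9 fits that left out 1 sample, all but those without Rop7-II replicate 1 and Rop7-III replicate 1, with adjusted p between 0.0119 and 0.0395. The size of the change depended on the Rop7-III samples. It was -4.06 and -3.71 on the log2 scale, against Rop7-II and Rop7-I, without Rop7-III replicate 1, and -2.63 and -2.28 without Rop7-III replicate 3. In all of these fits Rop7-III was lower.

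H2-Q7 shares reads with its relatives. Of the stretches of 100 bases in its annotated transcripts, 12.0% occur unchanged in a transcript of another gene, and the shares were 10.8% in H2-Q6, 8.86% in H2-T22, 8.01% in H2-Q10, 3.59% in H2-D1, 3.15% in H2-T23, 2.16% in H2-Q4 and 0.957% in H2-K1. H2-T24 and B2m had none. The annotation used for this count, GENCODE M21, held no transcript for H2-Q8, H2-Q9, H2-T9 and H2-L, and sharing with those was not computed. How much the transcripts of the d haplotype share was not computed either. RSEM divides reads that match several copies among them by estimate. H2-Q6 and H2-Q7 summed to 594.0 ± 10.35 TPM in Rop7-I. The Rop7-II value was 464.5 ± 134.5 TPM and the Rop7-III value was 421.8 ± 18.5 TPM (SD, n = 3). As 1 row, their log2 fold change was -0.10 against Rop7-II (adjusted p = 0.664) and -0.49 against Rop7-I (adjusted p = 0.0659), and neither passed.

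Sums with H2-Q9 and H2-Q8 were added after seeing the data. H2-Q7 and H2-Q9 together stood at 745.5 ± 41.8 TPM in Rop7-I. The Rop7-II value was 614.1 ± 44.6 TPM and the Rop7-III value was 344.7 ± 54.9 TPM, with no overlap between clones. That sum was 1.78-fold lower in Rop7-III than the Rop7-II mean and 2.16-fold lower than the Rop7-I mean. As 1 row, it fell by 0.84 on the log2 scale against Rop7-II (adjusted p = 0.000487) and by 1.12 against Rop7-I (adjusted p = 0.000213). H2-Q9 itself stood at 652.2 ± 34.3, 493.6 ± 51.4 and 329.1 ± 43.5 TPM and fell in Rop7-III against Rop7-II by 0.59 on the log2 scale (adjusted p = 0.00299) and against Rop7-I by 0.99 (adjusted p = 0.00038). H2-Q8 stood at 450.6 ± 64.1, 277.9 ± 104.6 and 453.7 ± 42.5 TPM. The sum of H2-Q6 to H2-Q9 was 1696.8 ± 88.3, 1236.0 ± 277.1 and 1204.6 ± 66.5 TPM in Rop7-I, Rop7-II and Rop7-III, and as 1 row it gave a log2 fold change of -0.02 against Rop7-II (adjusted p = 0.94) and -0.49 against Rop7-I (adjusted p = 0.034). Neither of the values for the 4 summed rows passed, whereas both for H2-Q7 with H2-Q9 did.

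**Figure D4:**
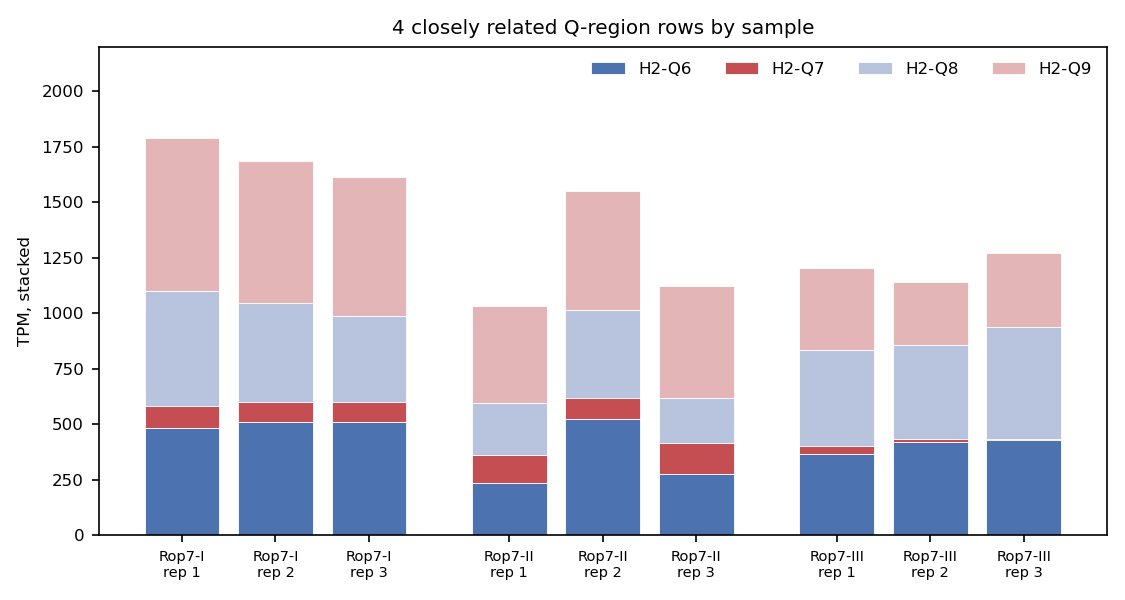
TPM of the rows H2-Q6, H2-Q7, H2-Q8 and H2-Q9 stacked in each of the 9 samples (vertical axis from 0). H2-Q7 is the dark red part, between 86.6 and 142.0 TPM in the Rop7-I and Rop7-II samples and at most 33.3 TPM in Rop7-III, and the whole bar of Rop7-III has about the height of those of Rop7-II replicates 1 and 3.

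The promoters of H2-Q7, H2-Q6 and H2-Q10 are shown because these neighbours differ in the marked elements. Whether those elements bear on their levels was not tested. H2-Q7 is chr17:35438940-35439139, H2-Q6 chr17:35424650-35424849 and H2-Q10 chr17:35469889-35470088, all on the plus strand of GRCm38.p6, with the same elements in capitals. H2-Q6 lacks TGACG and H2-Q10 has TTTCACTT alone. H2-Q7 has a further CCAAT closer to its start than the stretch shown.
H2-Q7: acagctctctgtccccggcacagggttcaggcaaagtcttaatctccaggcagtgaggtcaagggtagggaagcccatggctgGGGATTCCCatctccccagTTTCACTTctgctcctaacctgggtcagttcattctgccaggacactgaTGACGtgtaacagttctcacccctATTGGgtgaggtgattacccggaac
H2-Q6: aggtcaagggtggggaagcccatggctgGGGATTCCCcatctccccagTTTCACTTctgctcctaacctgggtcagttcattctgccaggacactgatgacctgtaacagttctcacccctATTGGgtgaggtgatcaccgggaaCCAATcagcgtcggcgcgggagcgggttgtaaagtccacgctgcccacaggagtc
H2-Q10: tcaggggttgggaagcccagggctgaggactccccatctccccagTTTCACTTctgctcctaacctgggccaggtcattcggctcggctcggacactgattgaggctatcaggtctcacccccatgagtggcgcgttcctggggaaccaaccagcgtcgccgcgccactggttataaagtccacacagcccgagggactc

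H2-Q6 (chromosome 17, 35424850 to 35430055) stood at 480.6, 509.9 and 511.7 TPM in Rop7-I. The Rop7-II values were 235.3, 523.2 and 273.5 TPM and the Rop7-III values were 367.2, 421.5 and 429.8 TPM. H2-Q10 (chromosome 17, 35470089 to 35474563) stood at 163.7, 173.6 and 152.8 TPM, at 79.4, 186.2 and 79.5 TPM and at 128.9, 139.8 and 152.0 TPM in the same order. In both genes, Rop7-II replicates 1 and 3 were the lowest of the 9 samples and replicate 2 was the highest. Neither gene passed in any comparison of all samples, with log2 fold changes of Rop7-III against Rop7-II of 0.33 (adjusted p = 0.346) and 0.40 (adjusted p = 0.314). Without Rop7-II replicate 2, both rose in Rop7-III against Rop7-II, by 0.67 (adjusted p = 0.00073) and 0.81 (adjusted p = 0.000176). With replicate 2 alone in its clone, the values were -0.37 and -0.41, so that the direction turned with the sample used. Against Rop7-I, the log2 fold changes of Rop7-III were -0.30 (adjusted p = 0.445) and -0.22 (adjusted p = 0.651).

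H2-Q4 (chromosome 17, 35379617 to 35384674) was the most abundant of the 4 Q genes. It stood at 1419.2, 1380.2 and 1299.7 TPM in Rop7-I. In Rop7-II it was 1065.8, 1366.6 and 1084.4 TPM, and in Rop7-III 1030.2, 985.1 and 1097.7 TPM. Rop7-III lay below Rop7-I without overlap, at -0.40 on the log2 scale (standard error 0.09, adjusted p = 0.0184), which did not pass, and overlapped with Rop7-II replicates 1 and 3. Without Rop7-II replicate 2, the value against Rop7-I passed (adjusted p = 0.00126), and so did that of Rop7-I against Rop7-II, at 0.34 (adjusted p = 0.0038). The 4 Q genes together stood at 2123.7 ± 63.3 TPM in Rop7-I. The Rop7-II value was 1751.8 ± 363.5 TPM and the Rop7-III value was 1599.7 ± 72.4 TPM (SD, n = 3).

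The T genes lie beyond the Q genes, farther from H2-K1. H2-T23 encodes Qa-1, which presents leader peptides of other class I molecules to the inhibitory receptor CD94/NKG2A, and the product of H2-T22 needs no peptide and is known as a ligand of some gamma delta T cells. H2-T22 (chromosome 17, 36037128 to 36042742) stood at 229.2, 234.0 and 243.5 TPM in Rop7-I. Rop7-II replicates had 184.0, 219.4 and 193.9 TPM, and those of Rop7-III 152.3, 142.2 and 164.2 TPM. The 3 clones did not overlap, with Rop7-I highest and Rop7-III lowest. H2-T22 fell in Rop7-III against Rop7-I, at -0.62 on the log2 scale (standard error 0.07, adjusted p = 0.000641), a fold of 1.54, and against Rop7-II, with -0.38 (standard error 0.07, adjusted p = 0.00416). Rop7-I and Rop7-II differed by 0.24 (adjusted p = 0.038). The call against Rop7-I held in 23 of 23 alternatives, with adjusted p up to 0.00444, and H2-T22 was the one gene of the 10 with a call that no alternative ended. Against Rop7-II it was lost without Rop7-II replicate 3 (adjusted p = 0.0107), Rop7-III replicate 1 (adjusted p = 0.0177) or Rop7-III replicate 2 (adjusted p = 0.0179).

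H2-T23 (chromosome 17, 36029977 to 36032701) stood at 848.9, 870.2 and 811.1 TPM in Rop7-I. The Rop7-II values were 755.4, 862.0 and 831.7 TPM and the Rop7-III values were 678.6, 641.5 and 682.5 TPM. All 3 Rop7-III samples lay below the other 6, and Rop7-I and Rop7-II overlapped. It fell in Rop7-III, with log2 fold changes of -0.29 against Rop7-II (standard error 0.05, adjusted p = 0.00348) and -0.34 against Rop7-I (standard error 0.05, adjusted p = 0.00312), while Rop7-I and Rop7-II differed by 0.05 (adjusted p = 0.563). Against Rop7-II, the call was lost without Rop7-II replicate 3 (adjusted p = 0.0134) or any 1 of the Rop7-III samples (adjusted p between 0.0104 and 0.017). Against Rop7-I it was lost without Rop7-I replicate 1 or 2 (adjusted p = 0.0166 and 0.0169) or any 1 of the Rop7-III samples (between 0.0115 and 0.0174). Over all 23 alternatives, the log2 fold change stayed between -0.37 and -0.25 against Rop7-II and between -0.40 and -0.31 against Rop7-I.

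H2-T24 (chromosome 17, 36003471 to 36020800), the weakest of the 10 genes outside Rop7-III, stood at 47.5, 55.7 and 48.6 TPM in Rop7-I. In Rop7-II it was 35.0, 49.9 and 56.8 TPM, and in Rop7-III 40.0, 35.4 and 30.6 TPM. Its log2 fold changes of -0.51 against Rop7-I (standard error 0.16, adjusted p = 0.0674) and -0.39 against Rop7-II (adjusted p = 0.11) did not pass. Without Rop7-II replicate 1, both did (adjusted p = 0.00923 and 0.00595). H2-T22, H2-T23 and H2-T24 together stood at 1129.6 ± 28.5 TPM in Rop7-I. The Rop7-II value was 1062.7 ± 80.3 TPM and the Rop7-III value was 855.7 ± 31.9 TPM (SD, n = 3). Rop7-III did not overlap with either other clone, and its mean was 1.32-fold below that of Rop7-I and 1.24-fold below that of Rop7-II. H2-T22 shares 6.92% of its stretches of 100 bases with H2-T10. With the related rows H2-T9 and H2-T10 added, its sum was 358.8 ± 10.9, 387.1 ± 17.9 and 260.3 ± 12.8 TPM in Rop7-I, Rop7-II and Rop7-III, again lowest in Rop7-III without overlap, and highest in Rop7-II.

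The promoters of H2-T22 and H2-T23 are shown as those of the T genes with a window. Both lack GGGATTCCC, as do those of B2m, which fell, and of H2-Q4 and H2-Q10, which did not pass. Of the genes with it, H2-K1 and H2-Q7 fell, and H2-D1 and H2-Q6 did not pass. Whether the elements bear on the levels was not tested. H2-T22 is chr17:36042743-36042992 and H2-T23 chr17:36032702-36032901, written 5′ to 3′ on the minus strand. In H2-T22, capitals mark CCAAT on the minus strand at 2 positions and once on the plus strand, TTTCACTTT, in which TTTCACTT and the reverse of AAANNGAAA overlap, and TGACG. In H2-T23 they mark the reverse of AAANNGAAA and CCAAT.
H2-T22: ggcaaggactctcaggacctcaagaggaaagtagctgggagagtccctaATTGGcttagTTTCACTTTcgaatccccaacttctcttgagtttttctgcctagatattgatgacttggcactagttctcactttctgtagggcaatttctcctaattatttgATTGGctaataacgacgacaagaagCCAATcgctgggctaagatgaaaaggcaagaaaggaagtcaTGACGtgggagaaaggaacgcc
H2-T23: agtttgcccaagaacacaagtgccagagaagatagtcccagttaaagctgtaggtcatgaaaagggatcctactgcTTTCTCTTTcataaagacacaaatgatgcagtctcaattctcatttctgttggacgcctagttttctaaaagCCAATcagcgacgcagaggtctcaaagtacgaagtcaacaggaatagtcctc

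B2m lies outside the complex, on chromosome 2 (122147687 to 122153082), and its product pairs with class I heavy chains. It stood at 4141.5, 4204.4 and 4114.8 TPM in Rop7-I. Rop7-II replicates had 4082.9, 4040.4 and 3948.7 TPM, and those of Rop7-III 3732.1, 3593.2 and 3740.8 TPM. The clones did not overlap, and Rop7-II replicate 2 lay between its clone-mates, unlike in H2-K1, H2-D1 and the Q genes. B2m fell in Rop7-III against Rop7-I, at -0.17 on the log2 scale (standard error 0.03, adjusted p = 0.00584), and its value of -0.13 against Rop7-II (standard error 0.03, adjusted p = 0.0129) did not pass. The call was lost without any 1 of the Rop7-I or Rop7-III samples, with adjusted p between 0.0146 and 0.0305. With a shift of all samples to a common median, the log2 fold change against Rop7-I was -0.16 (adjusted p = 0.0193). The promoter of B2m (chr2:122147487-122147686, plus strand) is shown because it has AAANNGAAA in the forward direction and neither GGGATTCCC nor TTTCACTT. Capitals mark AAANNGAAA, TGACG and CCAAT on the minus strand.
B2m: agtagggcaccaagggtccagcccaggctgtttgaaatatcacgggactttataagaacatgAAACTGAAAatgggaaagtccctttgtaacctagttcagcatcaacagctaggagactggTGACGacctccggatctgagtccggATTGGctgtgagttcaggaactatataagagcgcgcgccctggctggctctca

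The 9 heavy-chain genes together stood at 9255.1, 9231.9 and 8924.3 TPM in Rop7-I. The Rop7-II values were 8772.0, 9466.9 and 9171.0 TPM and the Rop7-III values were 7524.4, 7444.1 and 7934.9 TPM. All Rop7-III samples lay below the other 6, and Rop7-I and Rop7-II overlapped, with means of 9137.1 ± 184.7 and 9136.6 ± 348.7 TPM against 7634.5 ± 263.3 TPM (SD, n = 3). The mean of Rop7-III was 1.197-fold lower than that of either other clone. Leaving out any 1 sample, or Rop7-II replicates 1 and 3 together, left this difference between -0.31 and -0.23 on the log2 scale against Rop7-II and between -0.29 and -0.24 against Rop7-I. All 25 tested class I rows of chromosome 17 summed to 12515.9 ± 325.5, 11694.4 ± 889.4 and 10146.1 ± 393.9 TPM in Rop7-I, Rop7-II and Rop7-III, without overlap between Rop7-III and the others. The ratio of the 9 heavy chains to B2m was 2.20 ± 0.03 in Rop7-I, 2.27 ± 0.11 in Rop7-II and 2.07 ± 0.05 in Rop7-III.

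Among 42 other class I and class I-like genes, 40 were in the table and 22 were tested. Of these, 4 fell and 0 rose in Rop7-III against Rop7-II, 2 fell and 0 rose against Rop7-I, and 1 fell in Rop7-I against Rop7-II. Over all genes, 5.89% fell in Rop7-III against Rop7-II and 2.28% against Rop7-I, and 7.53% passed between Rop7-I and Rop7-II. H2-Q9, H2-T9 and H2-T10 had the smallest F test p. H2-T9 stood at 92.7 ± 10.0 TPM in Rop7-I. The Rop7-II value was 145.5 ± 15.0 TPM and the Rop7-III value was 87.2 ± 7.90 TPM, so that Rop7-II was high rather than Rop7-III low, with log2 fold changes of -0.73 for Rop7-III against Rop7-II (adjusted p = 0.000825) and -0.65 for Rop7-I against Rop7-II (adjusted p = 0.00249). With Rop7-II replicate 2 as the only sample of its clone, these values were -0.60 and -0.51. H2-T10 fell in Rop7-III against Rop7-II by 1.00 (adjusted p = 0.00279), and its Rop7-II samples were at 46.6, 29.2 and 51.7 TPM. The fall was 1.24 without Rop7-II replicate 2 (adjusted p = 6.7e-06) and 0.51 with replicate 2 as the only Rop7-II sample. The other 2 calls, chosen after their values were seen, were H2-M3, a presenter of formylated peptides, at -0.34 against Rop7-II (adjusted p = 0.00812), and H2-Q5 at -0.87 against Rop7-I (adjusted p = 0.00588). The call of H2-M3 held in 11 of 23 alternatives and that of H2-Q5 in 14. With replicate 2 as the only Rop7-II sample, H2-M3 stood at -0.27 against Rop7-II. H2-K2, a class I row outside this list and the 10 genes that was named after its values were seen, stood at 185.5 ± 4.97, 215.3 ± 19.9 and 164.6 ± 11.1 TPM and fell against Rop7-II by 0.38 (adjusted p = 0.0038). With replicate 2 as the only Rop7-II sample, H2-K2 stood at -0.23 on the log2 scale. The median log2 fold change of the 22 genes was 0.13 against Rop7-II and -0.18 against Rop7-I. The row H2-L, the symbol of the Ld gene, lay between 36.8 and 56.2 TPM in Rop7-I, 25.5 and 44.7 TPM for Rop7-II and 33.6 and 45.5 TPM for Rop7-III, and the clones overlapped. Whether reads of the Ld gene went to other rows was not tested.

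Of 18 genes that supply and load peptides, 8 fell and 0 rose against Rop7-II, and 8 fell and 0 rose against Rop7-I, with medians of -0.15 and -0.19. Between Rop7-I and Rop7-II, 1 was higher in Rop7-I. Among all genes, 5.89% fell in Rop7-III against Rop7-II and 2.28% against Rop7-I, and 7.53% passed between Rop7-I and Rop7-II. Psmb9, a catalytic subunit of the immunoproteasome, stood at 205.3 ± 7.14, 187.3 ± 8.23 and 146.1 ± 2.58 TPM in Rop7-I, Rop7-II and Rop7-III. It fell by 0.49 against Rop7-I (adjusted p = 0.000103) and 0.36 against Rop7-II (adjusted p = 0.000288), in 23 of 23 alternatives each. Tap1, a subunit of the peptide transporter, stood at 281.1 ± 7.74, 293.7 ± 16.0 and 208.4 ± 16.7 TPM and fell by 0.43 (adjusted p = 0.00172) and 0.49 (adjusted p = 0.000404). Erap1, the aminopeptidase that trims peptides, was higher in Rop7-I than in both others, by 0.33 against Rop7-II (adjusted p = 0.000237), with Rop7-III 0.22 below Rop7-I (adjusted p = 0.00281). The other calls, named after their values were seen, were Tapbp, Psmb8, Psmb10, Psme1 and Psme2 in both comparisons of Rop7-III and Tap2 against Rop7-II, with falls of at most 0.40. Of these calls, that of Tap2 held in 9 of 23 alternatives and that of Psmb10 against Rop7-II in 11. The constitutive proteasome subunits Psmb5, Psmb6 and Psmb7, which the immunoproteasome subunits replace, did not pass, with log2 fold changes of Rop7-III between -0.14 and 0.01.

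**Figure D5:**
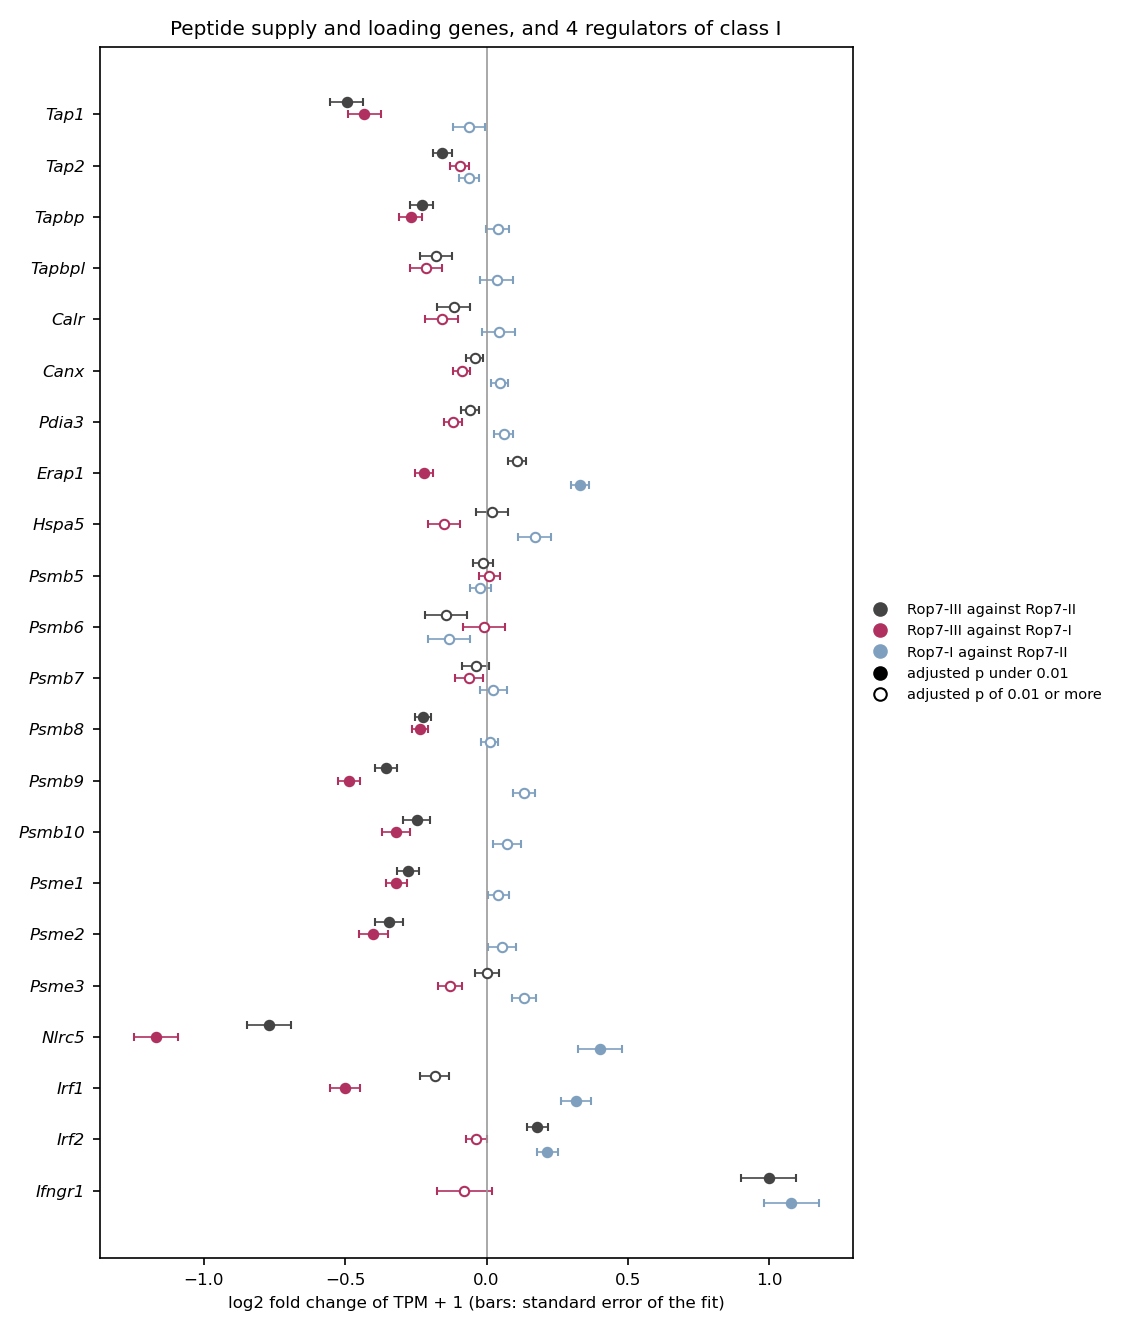
Log2 fold change of TPM + 1 (horizontal axis) of 18 genes of peptide supply and loading and of 4 regulators, with the standard error of the fit, for the 3 comparisons of clones. Filled points passed an adjusted p under 0.01. Nlrc5 lies farthest to the left, at -1.17 in Rop7-III against Rop7-I, and Ifngr1 lies farthest to the right, at 1.00 in Rop7-III against Rop7-II and 1.08 in Rop7-I against Rop7-II.

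Of 25 regulators of class I expression, 1 fell and 2 rose in Rop7-III against Rop7-II, and 3 fell and 0 rose against Rop7-I. Between Rop7-I and Rop7-II, 4 were higher and 1 lower in Rop7-I. In either direction, 12.3%, 4.85% and 7.53% of all genes passed in these comparisons, in the same order. Nlrc5, the transactivator of class I genes, stood at 180.8, 159.0 and 155.4 TPM in Rop7-I. In Rop7-II it was 116.1, 119.5 and 138.8 TPM, and in Rop7-III 68.7, 73.2 and 76.2 TPM. The clones did not overlap, with Rop7-I highest and Rop7-III lowest. The means of H2-D1, H2-Q4, H2-T22, H2-T23, H2-T24 and B2m had the same order. Those of H2-K1 and H2-Q7 were highest in Rop7-II, and those of H2-Q6 and H2-Q10 were lowest in Rop7-II. A link between Nlrc5 and these genes was not tested. Nlrc5 fell in Rop7-III by 1.17 against Rop7-I (standard error 0.08, adjusted p = 3.8e-05) and by 0.77 against Rop7-II (standard error 0.08, adjusted p = 0.000174), in 23 of 23 alternatives each. Ifngr1, a chain of the interferon gamma receptor, went another way, at 358.2 ± 34.9, 169.7 ± 21.5 and 338.6 ± 26.8 TPM, with Rop7-II low. It rose in Rop7-III against Rop7-II by 1.00 (adjusted p = 0.000138) and differed by -0.08 between Rop7-III and Rop7-I (adjusted p = 0.644). The rise held in 23 of 23 alternatives, with log2 fold changes of 0.94 to 1.10. Irf1, a factor that binds interferon response elements and was named after its values were seen, fell against Rop7-I by 0.50 (adjusted p = 0.000473) and had a log2 fold change of -0.18 against Rop7-II (adjusted p = 0.0315).

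Of 39 listed genes known to be induced by interferons, 36 were tested, of which 15 fell and 0 rose in Rop7-III against Rop7-I, 6 of them at least 2-fold, and 4 fell and 0 rose against Rop7-II. Between Rop7-I and Rop7-II, 10 were higher in Rop7-I and none lower. Among all genes, 2.28% fell in Rop7-III against Rop7-I and 5.89% against Rop7-II, and 7.53% passed between Rop7-I and Rop7-II. With at least a 2-fold change, 1.06% of all genes passed between Rop7-III and Rop7-I. The median log2 fold changes were -0.61 against Rop7-I and -0.25 against Rop7-II. The 6 were the GTPase genes Gbp6, Igtp, Iigp1, Irgm2, Tgtp1 and Tgtp2, which belong to families that act against intracellular parasites. Their log2 fold changes against Rop7-I lay between -1.09 in Gbp6 and -2.44 in Iigp1. Iigp1 was weak, at 8.65, 6.78 and 3.76 TPM in Rop7-I and at most 1.18 TPM in the other clones. Tgtp2 stood at 178.6 ± 8.26, 115.1 ± 20.4 and 72.3 ± 2.93 TPM in Rop7-I, Rop7-II and Rop7-III.

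Of 23 listed receptors and co-receptors for class I molecules, 21 were in the table and 9 were tested. Of these 9, 1 fell and 2 rose in Rop7-III against Rop7-II, and none passed against Rop7-I. In either direction, 12.3% and 4.85% of all genes passed in those comparisons. Klrd1, which encodes CD94, the partner of NKG2 chains in the receptor for Qa-1, stood at 255.0 ± 6.88, 177.9 ± 30.2 and 372.6 ± 86.7 TPM in Rop7-I, Rop7-II and Rop7-III and rose in Rop7-III against Rop7-II by 1.05 (adjusted p = 0.00162). Klrk1, which encodes the activating receptor NKG2D, rose in the same comparison by 2.21 (adjusted p = 0.00106), from 4.54 ± 1.63 to 25.1 ± 9.82 TPM. With replicate 2 as the only Rop7-II sample, the rises of Klrd1 and Klrk1 were 0.81 and 1.91. Against Rop7-I, the log2 fold changes were 0.52 (adjusted p = 0.061) and 0.82 (adjusted p = 0.119). Cd8a, a chain of the CD8 co-receptor that binds the class I heavy chain and was named after its values were seen, fell against Rop7-II by 0.39 (adjusted p = 0.000205), in 23 of 23 alternatives. It also fell in Rop7-I against Rop7-II, by 0.22 (adjusted p = 0.0064), which held in 8 of 23.

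Of the tested genes within 2 Mb of H2-Q7, 31 of 139 passed between Rop7-III and Rop7-II, or 22.3%, 12 between Rop7-III and Rop7-I, or 8.63%, and 6 between Rop7-I and Rop7-II, or 4.32%. Over all genes, the shares were 12.3%, 4.85% and 7.53%. Of these 139, 20 are class I rows. The genes that passed with at least a 2-fold change in any comparison were Myo1f, Lta, Mir8094, Ddr1 and H2-Q7. Ddr1, a receptor kinase for collagen, stood at 18.3, 5.65 and 23.2 TPM in Rop7-II replicates 1, 2 and 3 and at most 4.51 TPM in the other clones. Myo1f rose in Rop7-III against Rop7-II by 1.198 (adjusted p = 0.00283), while Lta, the cytokine lymphotoxin alpha, fell by 1.27 (adjusted p = 0.00272) and Ddr1 by 2.11 (adjusted p = 0.00448). Mir8094 rose in Rop7-I against Rop7-II by 1.53 (adjusted p = 0.00546). With replicate 2 as the only Rop7-II sample, these log2 fold changes were 0.60 for Myo1f, -0.74 for Lta, -0.98 for Ddr1 and 1.03 for Mir8094.

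Of all tested genes, those whose values followed H2-T22, which had the largest F statistic of the 10 genes, most closely over the 9 samples were Baz1b (Pearson's r = 0.99 on log2(TPM + 1)), H2-Q9 (0.97), Hjurp (0.96), Psmb9 (0.96) and Itprip (0.95). These are descriptions over 9 samples of 3 clones, in which a difference between clones alone makes genes rank high. Baz1b, Hjurp and Itprip lie on chromosomes 5, 1 and 19, outside the complex.

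Markers of the sorted cells and of others were read beside these results. The 8 markers of CD8 T cells had a TPM over 1 in every sample and summed to between 6780.8 and 7602.2 TPM. The 11 B-cell markers summed to between 150.8 and 384.3 TPM in Rop7-I, between 81.7 and 868.5 TPM in Rop7-II and between 64.2 and 125.2 TPM in Rop7-III, and 10 or 11 of them were over 1 TPM in each sample. Rop7-II replicate 1 was the highest sample in 11 of 11 B-cell markers and in 10 of 10 myeloid markers, which summed to 671.8 TPM there. The myeloid sum reached 213.7 TPM in the other samples of Rop7-II, 139.3 for Rop7-I and 64.3 for Rop7-III. In limma, 7 of these 10 markers were lower for Rop7-III against Rop7-II at an unadjusted p under 0.05, against 19.9% of all genes. At an adjusted p under 0.01 it was 0 of them. The 6 erythroid markers summed to 224.9 to 1407.8 TPM in Rop7-I, whereas the Rop7-II samples held 15.2 to 117.1 TPM and those of Rop7-III 69.0 to 285.6 TPM. The part of myeloid and erythroid RNA in the differences between clones was not tested. Of 11 class II genes, 1 passed, H2-DMa, which fell in Rop7-III against Rop7-II by 0.72 (adjusted p = 0.00899). With replicate 2 as the only Rop7-II sample, H2-DMa stood at -0.30 on the log2 scale. The other 10 did not pass, at medians over the list of -0.80 against Rop7-II and -1.36 against Rop7-I. For Rop7-III against Rop7-II, 12.3% of all genes passed. H2-Aa, a class II chain of antigen-presenting cells, stood at 134.9 ± 53.7, 154.2 ± 201.6 and 36.8 ± 9.98 TPM. With the B-cell markers as a covariate, H2-T22, H2-T23 and H2-Q7 kept their calls against Rop7-II, and H2-K1 did not, at -0.47 on the log2 scale (adjusted p = 0.0103) in place of -0.51. Against Rop7-I, H2-T22 and H2-T23 kept theirs, and H2-Q7 (-3.02, adjusted p = 0.0218) and B2m (-0.16, adjusted p = 0.0196) did not, whereas H2-Q4 then passed (-0.49, adjusted p = 0.00924). In bulk RNA, fewer cells of a type and less RNA per cell cannot be told apart.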

How the data were processed

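The authors deposited 1 table of TPM for 24060 genes in 9 samples, made from non-strand-specific polyA libraries of 200 ng RNA with RSEM 1.2.11 against mm10 RefSeq genes. TPM hold no counts, so that depth is unknown and counting error got no interval. The study's DESeq2 1.8.1 needs counts and was not run. Clones were compared with limma 3.58.1 (R 4.3.3, trend with mean expression) on log2(TPM + 1) over all 9 samples, for 12115 genes with a TPM over 1 in any sample, and fold changes are on that scale. A gene passed at a Benjamini-Hochberg adjusted p under 0.01, and the 2-fold count stands beside it. The fit was tested on simulated data in which each gene had 1 spread in all clones. That setting does not cover class I rows, whose spread differed between clones. The members and lists were chosen with earlier results of these data known. 1 gene of the lists of regulators and interferon-induced genes is not reported here and was left out of both lists. From each list, genes that passed with a 2-fold change, or else at most 3 with the smallest F test p, were named, and also neighbours within 2 Mb of H2-Q7 that passed with a 2-fold change and the 5 genes most like H2-T22. Alternatives changed the pseudocount, filter, scaling, trend, samples, replicate block, B-cell covariate and summing of H2-Q6 with H2-Q7. Sums with H2-Q8 and H2-Q9, the fit without Rop7-II replicates 1 and 3 and the motif TTTCACTT were chosen after seeing the data. Positions and promoters are from RefSeq (GRCm38.p6), with no window for H2-T24.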

Additional observations from a re-analysis of the deposited data

How the results depend on the processing

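The number of the 10 genes that passed depended on the setting. Against Rop7-II, 4 passed, and the count was 1 with no trend of the spread, 2 with a replicate block, 0 in the fit of only the clones compared, and 0 to 6 when 1 sample was left out. Of the 6, H2-Q6 and H2-Q10 rose. Of all genes, 1488 passed, 1175 with no trend, 1105 with a replicate block and 834 to 1315 when 1 sample was left out. For the fits of only the clones compared, the count over all genes was not taken. Against Rop7-I, 4 passed, and the count was 2 with no filter on low values, 1 with no trend, 1 with a replicate block, 7 with only the clones compared, and 1 to 5 when 1 sample was left out. Of all genes, 588 passed, 442 with no filter, 407 with no trend, 373 with a replicate block and 258 to 830 when 1 sample was left out. Between Rop7-I and Rop7-II, 0 passed, and 0 to 5 when 1 sample was left out, where the counts over all genes were 912 and 416 to 875. The F test passed 4, and 2 with no filter, 1 with no trend and 1 to 9 when 1 sample was left out. Of all genes it passed 1707 in the main fit, and the count over all genes was not taken in the other settings. The fit of all 9 samples takes 1 spread per gene from all of them, also from the clone not compared. With only Rop7-III and Rop7-I in the fit, H2-D1 and H2-Q4 kept their log2 fold changes of -0.19 and -0.40. Their adjusted p was then 0.00488 and 0.00105, in place of 0.0498 and 0.0184. Why the other counts moved was not tested. The direction of Rop7-III against Rop7-I did not reverse in any of the 10 genes. Against Rop7-II, H2-Q6 reversed to -0.10 summed with H2-Q7, to -0.0157 in the sum of H2-Q6 to H2-Q9 and to -0.37 without Rop7-II replicates 1 and 3, and H2-Q10 to -0.41 without those replicates. Between Rop7-I and Rop7-II, leaving out the same replicates gave -0.0704 for H2-D1, -0.001243 for H2-Q4, -0.0638 for H2-Q6, -0.19 for H2-Q10 and -0.0320 for H2-T23. H2-Q7 reversed to 0.39 summed with H2-Q6, 0.28 with H2-Q9 and 0.48 in the sum of H2-Q6 to H2-Q9. Without Rop7-II replicate 1, H2-T23 gave -0.006186 and H2-T24 -0.0751, where the highest values with 1 sample left out were 0.0889 and 0.266, and quantile normalization gave -0.004175 for B2m. Replicate numbers did not pair the samples, since deviations of samples with the same number correlated at -0.388 to 0.106, and the replicate block ended the calls of H2-T22 (adjusted p = 0.0102 in limma) and H2-T23 (0.0107) against Rop7-II and of H2-T23 (0.0116), H2-Q7 (0.015) and B2m (0.0161) against Rop7-I. Summing of copies chosen by protein identity was not run, and H2-Q6 and H2-Q7 were summed whatever their identity. TPM hold no depth.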
